A study of Mus musculus with 4 samples.

Results

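Oxidative phosphorylation genes of both genomes were followed across dendritic cells and lymphocytes of the mouse spleen. The members were chosen by symbol, with earlier results of these data known. They begin with Nduf, Uqcr, Sdh, Atp5 or Cox followed by 4 to 8, without -ps symbols and without Cox6a2, or with mt-Nd, mt-Co, mt-Cytb or mt-Atp. The rule found 114 of 55385 listed genes, 101 nuclear and 13 mitochondrial. The nuclear members were 40 of complex I, 4 of complex II, 8 of complex III, 19 of complex IV, 18 of ATP synthase (complex V) and 12 assembly factors. Ndufa4 was counted with complex IV, where its protein sits. The mitochondrial members were 7 of complex I, 1 of complex III, 3 of complex IV and 2 of complex V.

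The spleens were those of 2 wild-type mice (C57BL6), untreated and at steady state per the labels. Dendritic cells were enriched, stained with 160 barcoded antibodies and 9 isotype controls, and sorted as type 1 conventional dendritic cells (cDC1), type 2 cells (cDC2) and random live cells. RNA and antibody barcodes were then read from the same cells by CITE-seq, as unique molecular identifiers (UMIs), in 2 libraries. Nothing in the labels says that the libraries are separate mice. Each p-value below thus covers only the spread of class differences between the libraries, which may be technical.

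Oxidative phosphorylation passes electrons from NADH (complex I) and succinate (complex II) through complex III and cytochrome c to oxygen at complex IV, and the proton gradient so built drives ATP synthase. Complexes I, III, IV and V combine nuclear subunits with a few encoded in mitochondrial DNA, whereas complex II is wholly nuclear. Dendritic cells mature from antigen-collecting cells into migratory cells that carry Ccr7, a chemokine receptor, and Fscn1, an actin-bundling protein, and after stimulation in culture they are known to shift from respiration towards glycolysis.

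Classes were set by antibody and RNA UMIs. A cDC1 carried at least 2 XCR1 antibody UMIs and at least 2 times its CD172a count, a cDC2 the reverse, and both had at least 50 summed UMIs of MHC class II RNA. Immature cells had 0 Ccr7 and 0 Fscn1 UMIs. Intermediate cells had at least 2 Ccr7 and at most 2 Fscn1 UMIs, and late cells at least 5 Ccr7 and 3 Fscn1 UMIs. Cells of these steps also had at most 2 summed UMIs of G2M genes and 5 of S-phase genes. All dendritic classes had at most 1 UMI from each list of T, B, NK, plasmacytoid and monocyte or macrophage marker RNAs. Cycling cells had at least 10 summed UMIs of S-phase or G2M genes. T, B and NK cells were gated on their own marker RNAs.

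The promoters of 4 nuclear members are shown because their RNA differed in opposite directions in late cDC1: Sdhaf1 and Cox5a were higher, Ndufa5 and Ndufb11 lower. Each run holds 250 bases before and 50 after a RefSeq gene start (GRCm38.p6, the mm10 build), with searched motifs in capitals. The positions are chr7:30322326-30322625 on the minus strand (Sdhaf1), chr9:57520982-57521281 on the plus strand (Cox5a), chr6:24527641-24527940 on the minus strand (Ndufa5, 1 of 2 listed starts) and chrX:20617570-20617869 on the minus strand (Ndufb11).
Sdhaf1: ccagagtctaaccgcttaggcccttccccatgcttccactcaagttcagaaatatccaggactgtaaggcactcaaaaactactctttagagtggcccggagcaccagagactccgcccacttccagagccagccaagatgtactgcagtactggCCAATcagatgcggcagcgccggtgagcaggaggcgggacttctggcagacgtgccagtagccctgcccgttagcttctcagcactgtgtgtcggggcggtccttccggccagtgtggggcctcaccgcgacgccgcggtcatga
Cox5a: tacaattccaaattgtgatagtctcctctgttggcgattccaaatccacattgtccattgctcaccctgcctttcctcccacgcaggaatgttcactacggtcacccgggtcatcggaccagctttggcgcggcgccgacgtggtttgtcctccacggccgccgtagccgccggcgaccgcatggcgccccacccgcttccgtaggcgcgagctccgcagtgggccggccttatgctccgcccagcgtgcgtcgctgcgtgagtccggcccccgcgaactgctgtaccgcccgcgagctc
Ndufa5: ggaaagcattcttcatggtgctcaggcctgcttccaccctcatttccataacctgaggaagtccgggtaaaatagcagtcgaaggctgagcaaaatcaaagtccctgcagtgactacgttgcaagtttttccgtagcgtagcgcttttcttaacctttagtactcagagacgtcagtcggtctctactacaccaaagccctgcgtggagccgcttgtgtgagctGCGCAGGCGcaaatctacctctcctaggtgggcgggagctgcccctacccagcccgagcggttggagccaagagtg
Ndufb11: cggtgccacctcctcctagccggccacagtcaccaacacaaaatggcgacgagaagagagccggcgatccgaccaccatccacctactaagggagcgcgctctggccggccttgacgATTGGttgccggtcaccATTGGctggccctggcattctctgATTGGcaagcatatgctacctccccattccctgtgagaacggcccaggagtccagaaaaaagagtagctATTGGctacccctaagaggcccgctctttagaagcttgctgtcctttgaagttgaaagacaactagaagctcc
The motifs, searched on both strands, were GCGCANGCG (bound by NRF1), CCGGAAGT (ETS factors), AAGATGGCG (YY1) and CCAAT (the CCAAT box). Sdhaf1 held a CCAAT box 95 bases before the gene start, Ndufb11 held 4 (at 133, 116, 92 and 23 bases), Ndufa5 held the NRF1 letters 26 bases before the start, and Cox5a held none. Of 77 member genes with a promoter in the table, 31.2% held the NRF1 letters, against 7.03% of all 27025 genes and 16.2% of the genes tested here. YY1 letters stood in 10.4% of members and 4.04% of tested genes, ETS letters in 6.49% and 10.1%, and CCAAT in 42.9% of both. These are matches of letters, not measured binding.

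The libraries held 13822 and 17968 barcodes with 99617992 and 129565040 RNA UMIs. Of 31790 barcodes, 28142 passed the filters and 19465 fell in a class, and 41 kept barcodes occurred in both libraries. Cell numbers, for library 1 and library 2, were 3712 and 6080 for immature, 150 and 182 for intermediate and 102 and 133 for late cDC1. For cDC2 they were 1199 and 1311, 324 and 288, and 56 and 60. G2M cells numbered 747 and 892 in cDC1 and 123 and 185 in cDC2, S-phase cDC1 491 and 549, T cells 775 and 631, B cells 196 and 233, and NK cells 343 and 508. Xcr1 RNA averaged 556.7 CPM in immature cDC1 and 82.0 in immature cDC2. The B gate was mixed: Xcr1 averaged 169.1 there, and of 3 plasma cell markers Jchain averaged 13354, Sdc1 43.7 and Mzb1 2.37.

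Levels are CPM, the usual depth-scaled unit, here a gene's UMIs relative to all RNA UMIs of its class, for library 1 and then library 2. Counts from 3′ ends do not compare genes, so levels are set only between classes. Sums and percentages of immature levels are in CPM and so are scaled by library totals. Changes are log2 values from edgeR's quasi-likelihood test on class sums, scaled by trimmed mean of M values (TMM) with the library as a block. Each standard error (SE) was derived from that test, as the absolute change over the square root of its F statistic. A gene is called at a Benjamini-Hochberg adjusted p under 0.05 over 10467 genes. Tested were 90 nuclear and 11 mitochondrial members. Too low to test were Cox4i2, Cox7b2, Cox7a1, Cox8b, Cox6c2, Cox8c, Ndufs6b, Ndufa4l2, Ndufb4c, Ndufa11b, a second Atp5o entry with 0 UMIs, mt-Co3 and mt-Nd4l. In a sum over cells, fewer cells with a transcript and less of it per cell cannot be told apart.

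Nuclear oxidative phosphorylation RNA summed to lower CPM at each maturation step. Summed over 101 genes, cDC1 had 20754 and 20438 CPM when immature, 16656 and 17056 when intermediate and 13645 and 13602 when late. The cDC2 sums were 18978 and 19425, 17470 and 17949, and 14596 and 15760 CPM. At the first cDC2 step, however, Ndufa6 was the only nuclear member called lower. The all-gene median of that step was −0.0607 on library totals and −0.00759 under TMM. Libraries of different steps did not overlap in either lineage. The 13 mitochondrial genes of cDC1 summed to 7687 and 8052, 7886 and 7831, and 5233 and 5697 CPM, so that only late cells lay apart. In cDC2 they summed to 7730 and 7287, 7705 and 7154, and 6461 and 6497 CPM. These sums rest on a few genes. In immature cDC1 mt-Cytb and mt-Nd1 gave most of the sum, whereas mt-Co2, mt-Co3 and mt-Nd4l pooled to 6.42, 2.42 and 0.681 CPM.

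**Figure D1:**
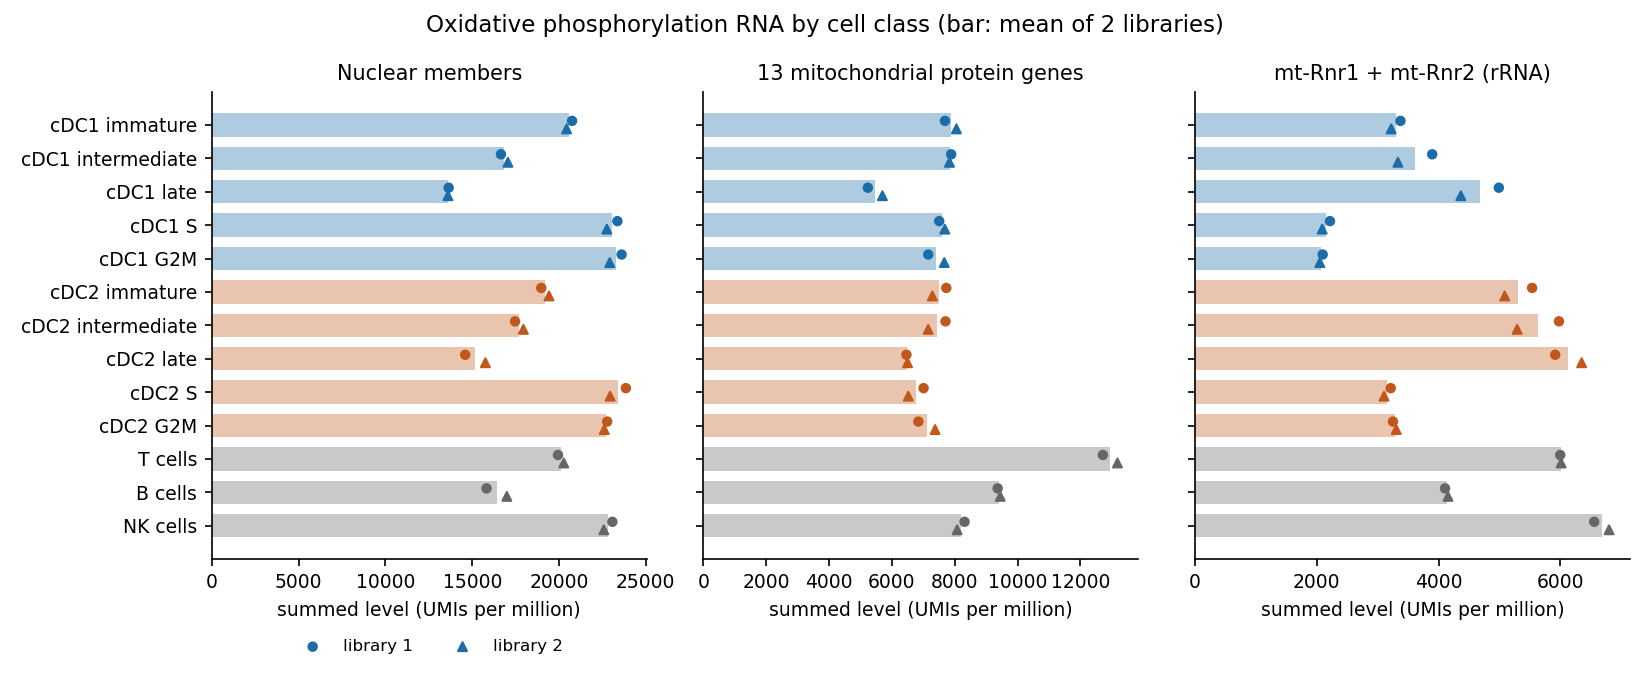
Summed level in CPM of the 101 nuclear members, the 13 mitochondrial members and the 2 mitochondrial ribosomal RNAs in each of 13 cell classes; bars are means of 2 libraries, circles library 1 and triangles library 2. Late cDC1 have the lowest nuclear sum (13645 and 13602) and T cells the highest mitochondrial sum (12712 and 13178).

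In late against immature cDC1, 68 of 90 nuclear members fell and 3 rose, and 5 of 11 mitochondrial members fell and 1 rose. Of all genes tested 47.5% were called, 22.5% higher and 25% lower. The median change was −0.65 for nuclear and −0.28 for mitochondrial members, against −0.19 over all genes. Scaling by library totals alone moved the all-gene median to −0.36 and gave 77 nuclear members lower and 3 higher, and 5 mitochondrial members lower and 0 higher. Per cell, nuclear members summed to 168.9 and 155.0 UMIs in immature and 91.3 and 91.4 in late cells, whose median depth was 5845.5 and 5972 RNA UMIs against 8296 and 7577.5.

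Complex I, the NADH dehydrogenase, kept 51.9% ± 2.19 of its immature nuclear level (SD, n = 2 libraries). This percentage and those below are of CPM on library totals, where the all-gene median was −0.361, against −0.188 under TMM. Of its 36 tested subunits 32 fell, with a median of −0.88. Ndufa5, an accessory subunit, stood at 61.1 and 53.8 CPM in immature, 25.4 and 30.9 in intermediate and 13.2 and 15.7 in late cells, with no overlap between steps. Its change was −1.79 (SE 0.25, adjusted p = 3.39e-07 by edgeR). Ndufb11, a membrane-arm subunit, stood at 421 and 427, 264 and 301 and 159.6 and 176 CPM, also without overlap, and changed by −1.16 (SE 0.10, adjusted p = 6.58e-12 by edgeR). Ndufa13 fell from 426 and 439.5 to 167 and 202 CPM (−1.05, SE 0.11), and Ndufs4, which the active complex needs, from 169 and 161 to 80.6 and 115 (−0.55, SE 0.13). Catalytic subunits fell too: Ndufv1, which binds FMN, went from 51.7 and 48.1 to 17.6 and 26.8 CPM (−0.95, SE 0.22). Ndufs1, an iron-sulfur subunit, went from 25.1 and 24.1 to 10.3 and 14.5 CPM (−0.78, SE 0.30).

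Complex I subunits without a call included Ndufv2, Ndufa1 and Ndufb4. Ndufv2, the partner of Ndufv1 in the NADH-binding module, stood at 154 and 143 CPM in immature, 91.7 and 92.0 in intermediate and 144 and 128 in late cells. It was thus lowest in the middle step, and it rose from intermediate to late cells by 0.59 (SE 0.14, adjusted p = 0.00234 by edgeR).

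Complex II, succinate dehydrogenase, kept 54.35% ± 8.16, and 3 of its 4 subunits fell. The membrane anchor Sdhc went from 45.7 and 46.6 to 13.2 and 17.9 CPM (−1.37, SE 0.28). The iron-sulfur subunit Sdhb went from 114 and 117 to 45.4 and 70.5 CPM (−0.80, SE 0.16), and the anchor Sdhd from 77.4 and 62.2 to 42.5 and 29.1 (−0.80, SE 0.19). None of the late libraries reached an immature level for these genes. The flavoprotein Sdha stood at 82.1 and 85.0 against 54.2 and 69.3 CPM and was not called (−0.24, SE 0.16, adjusted p = 0.211 by edgeR).

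A pair of complex II assembly factors rose instead. Sdhaf1, which helps place iron-sulfur clusters in Sdhb, stood at 21.3 and 21.9 CPM in immature, 94.2 and 76.9 in intermediate and 186 and 139 in late cDC1. In cDC2 it stood at 43.5 and 40.5, 131 and 109 and 276 and 185 CPM. The steps did not overlap in either lineage. From immature to late it rose by 3.06 (SE 0.15, adjusted p = 2.52e-18 by edgeR) in cDC1 and by 2.59 (SE 0.21, adjusted p = 1.01e-11 by edgeR) in cDC2. Sdhaf2, needed to attach the flavin to Sdha, stood at 25.0 and 23.1, 23.7 and 23.3 and 45.4 and 44.7 CPM in cDC1 and rose by 1.08 (SE 0.20, adjusted p = 2.83e-05 by edgeR). In cDC2 its change was 0.73 (SE 0.34, adjusted p = 0.127 by edgeR), not called. Sdhaf4, which binds Sdha during assembly, fell from 52.9 and 48.2 to 19.0 and 24.6 CPM in cDC1 (−1.01, SE 0.23). In all, 2 assembly factors rose and 6 fell in late cDC1, and their summed level was 102% ± 1.06 of immature.

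Complex I assembly factors that passed the test fell. Ndufaf8 went from 82.7 and 83.2 to 19.0 and 29.1 CPM (−1.57, SE 0.18) and Ndufaf4 from 19.0 and 14.9 to 5.86 and 4.47 (−1.54, SE 0.44). The late level of Ndufaf4 stood for few UMIs. Ndufaf6 went from 25.7 and 25.5 to 4.39 and 2.24 CPM (−2.83, SE 0.49), with 3 and 2 UMIs in late cells. Ndufaf1 had 0 and 3 UMIs in late cDC1, a pooled 1.90 CPM (exact 95% Poisson interval 0.392 to 5.56) against 9.26 in immature cells. Its call (−2.10, SE 0.63, adjusted p = 0.00646 by edgeR) was lost with doublets kept (adjusted p = 0.0627), with a lineage gate of 4 UMIs and 4 times (0.131) and with cells thinned to 3000 UMIs (0.0734). In late cDC2 Ndufaf1 had 0 UMIs. Taking 3 UMIs over both libraries as the floor, Ndufaf1 was at least 1.497-fold lower there than in immature cDC2. The exact 95% Poisson intervals overlapped, at 0 to 7.512 CPM in late and 7.393 to 11.2 in immature cDC2. Intervals and floors here cover counting error only.

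Complex III, which hands electrons to cytochrome c, kept 69.9% ± 1.78, and 7 of 8 nuclear subunits fell. Uqcrb went from 408 and 375 to 198 and 188 CPM (−0.84, SE 0.10) and Uqcr11 from 185 and 179.9 to 93.7 and 88.4 (−0.83, SE 0.13). Of the large core subunits, Uqcrc1 changed by −0.78 (SE 0.16) and Uqcrc2 by −0.49 (SE 0.13). Uqcrh, the hinge subunit, stood at 616 and 643 against 598 and 622 CPM, overlapping levels with no call (0.13, SE 0.08, adjusted p = 0.188 by edgeR).

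Complex IV, cytochrome c oxidase, kept 78.8% ± 1.48, with 7 of 13 tested members lower and 1 higher. Cox5a, a matrix-side subunit, stood at 438 and 422 CPM in immature, 454 and 474 in intermediate and 784 and 613 in late cells. Both late libraries lay above all earlier ones, and the rise was 0.87 (SE 0.10, adjusted p = 4.12e-09 by edgeR). Cox4i1, through which ATP is known to regulate the complex, stood at 1177 and 1270.0, 1104 and 1166 and 1107 and 1148 CPM and was not called (0.06, SE 0.07, adjusted p = 0.53 by edgeR). Cox7b fell from 463 and 437 to 202 and 204 CPM (−0.97, SE 0.10), Cox7a2 from 323 and 321 to 183 and 186 (−0.63, SE 0.10) and Ndufa4 from 414 and 379.7 to 253 and 219 (−0.57, SE 0.09). Smaller falls were those of Cox6c, Cox6a1, Cox8a and Cox5b (−0.48, −0.47, −0.38 and −0.34). Cox6b1 was not called (−0.21, SE 0.10, adjusted p = 0.0642 by edgeR), nor was Cox7a2l (−0.15, SE 0.08, adjusted p = 0.115 by edgeR).

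**Figure D2:**
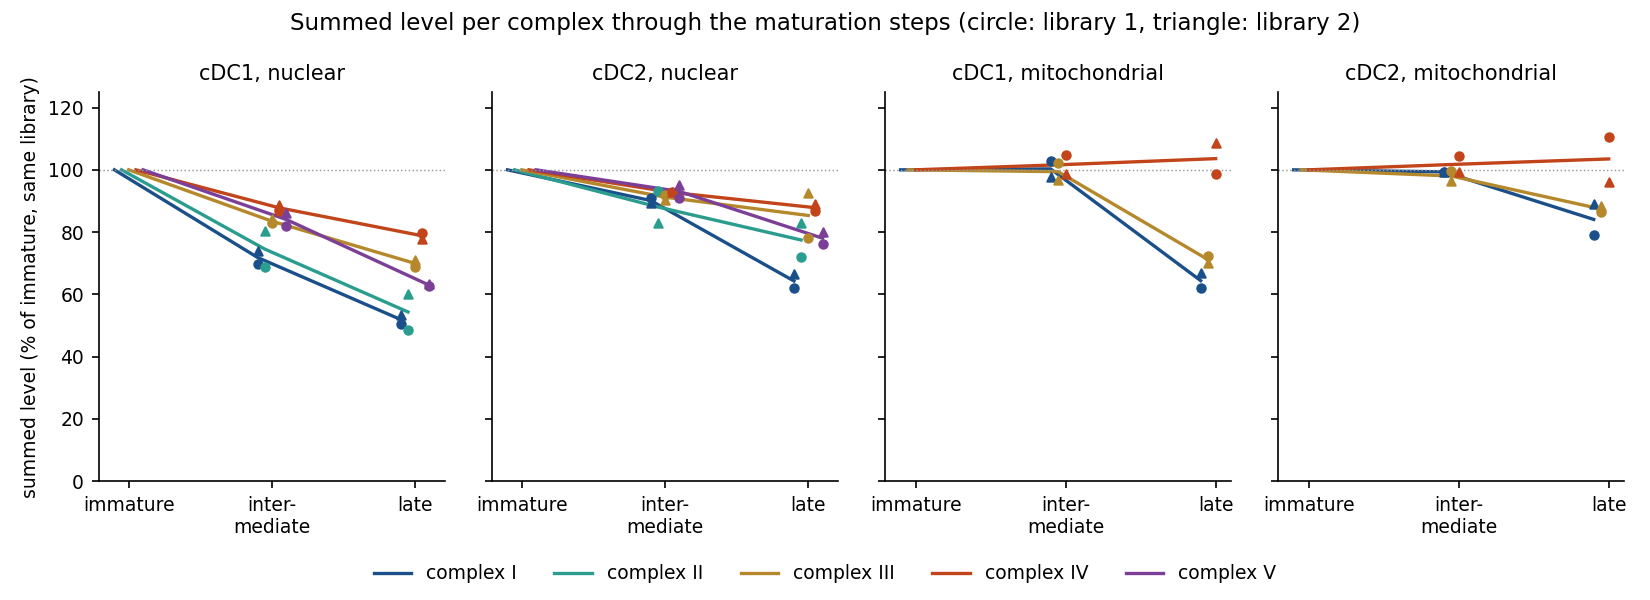
Summed level in CPM of each complex as a percentage of immature cells of the same library. Shown are the immature, intermediate and late steps of cDC1 and cDC2, for nuclear and for mitochondrial subunits, by library. Nuclear complex I ends at 51.9% and complex IV at 78.8% in late cDC1. Mitochondrial complex IV is nearly all mt-Co1, and mitochondrial complex V is not drawn.

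ATP synthase kept 62.9% ± 0.366, and 13 of 17 tested subunits fell. In the catalytic head, Atp5b (beta) went from 584 and 568 to 343 and 337 CPM (−0.59, SE 0.08) and Atp5c1 (gamma) from 489.5 and 492 to 237 and 275 (−0.76, SE 0.10). Among the genes of the rotor ring, Atp5g1 changed by −0.81 (SE 0.11) and Atp5g3 by −0.78 (SE 0.12). Atp5g2, which encodes the same mature protein, stood at 24.5 and 19.7 against 14.6 and 16.8 CPM and was not called. The stalk subunit Atp5h went from 741 and 725 to 448 and 449 CPM (−0.53, SE 0.08). Atp5pb, Atp5k and Atp5l were not called either.

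**Figure D3:**
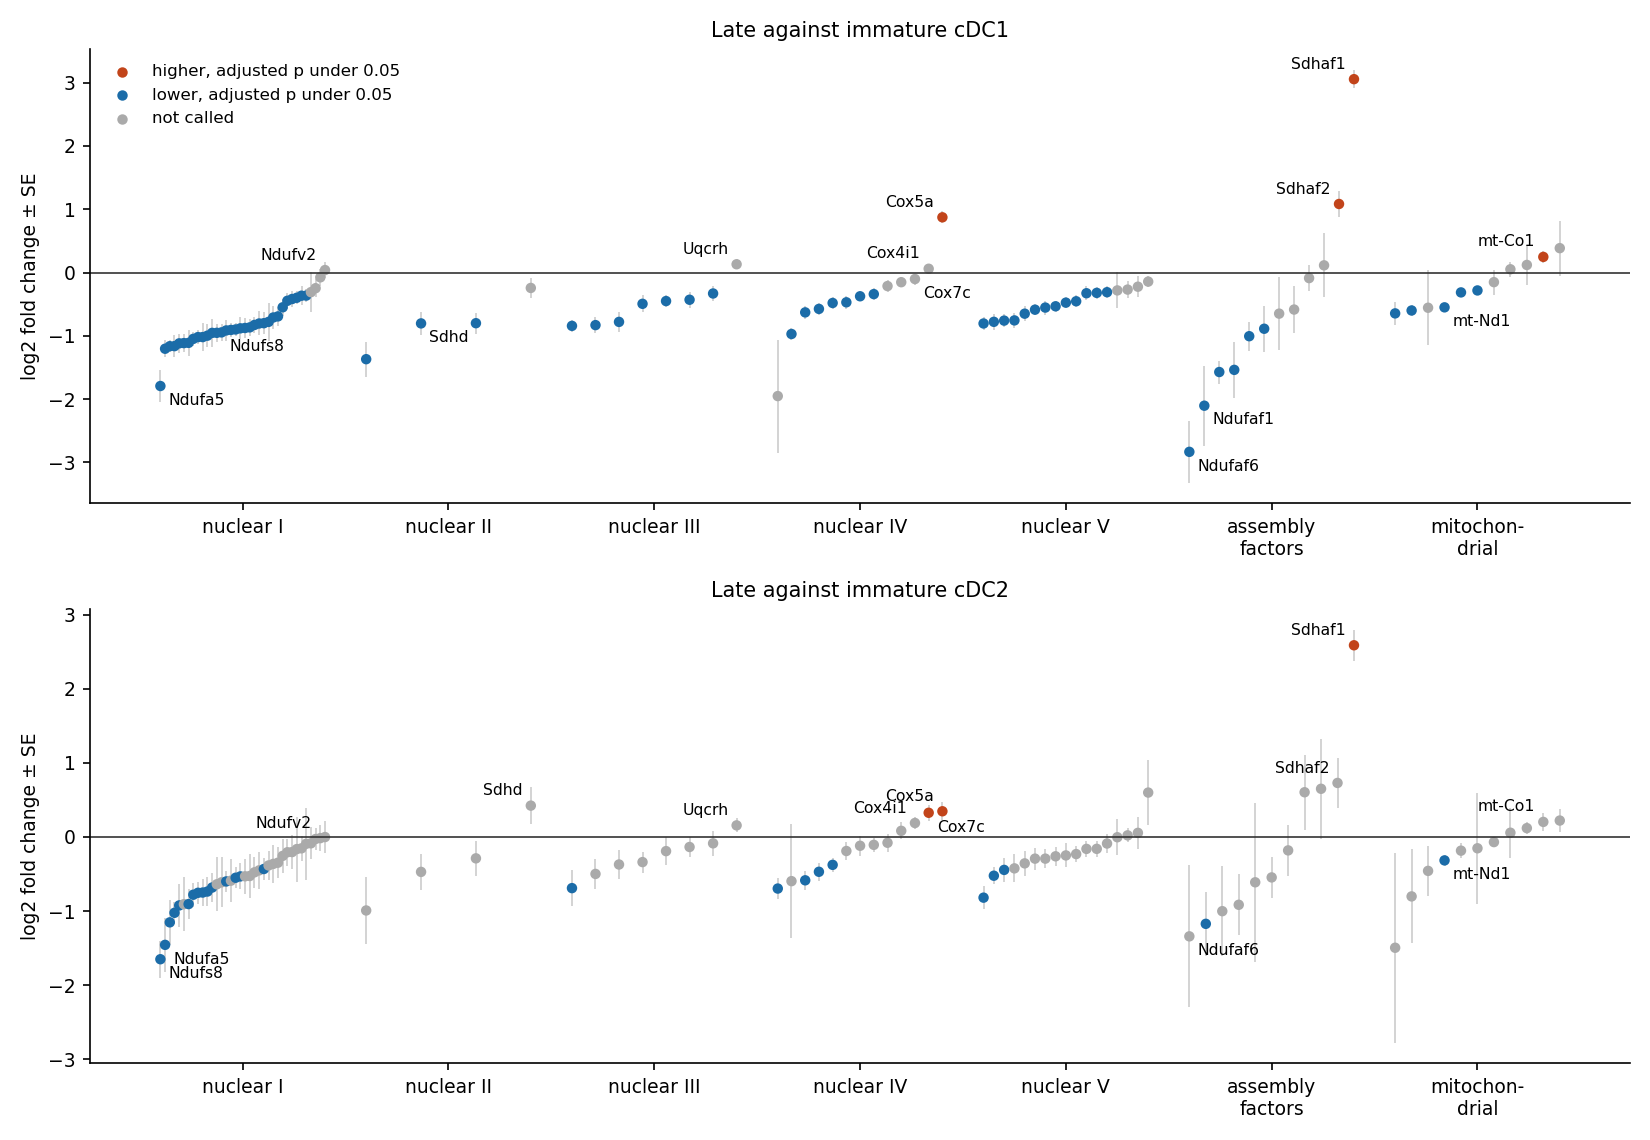
The log2 fold change of late against immature cells with its SE for tested members, ordered within each complex, in cDC1 and cDC2; red is higher, blue lower and grey not called. Sdhaf1 stands highest at 3.06 and 2.59, and most complex I points lie below 0; Ndufaf1, with 0 UMIs in late cDC2, is not drawn there.

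At the first step of cDC1, intermediate against immature, 32 nuclear members fell and 2 rose. The nuclear median was −0.23 against −0.10 for all genes, of which 28% were called (14.4% higher, 13.6% lower). Complex I gave 20 of the falls out of 36 subunits, complex IV 1 of 13 and complex V 3 of 17. The largest falls were those of Sdhaf3 (−1.45), Ndufaf7 (−1.18), Ndufaf6 (−1.05), Ndufa5 (−0.87), Ndufs1 (−0.85) and Sdhd (−0.78). Cox5a rose by 0.25 (SE 0.10, adjusted p = 0.0487 by edgeR) and Sdhaf1 by 2.11 (SE 0.14, adjusted p = 8.77e-14 by edgeR). No mitochondrial member was called by edgeR, and 4 were higher by DESeq2. Scaling by library totals gave 62 nuclear members lower and 1 higher, with the all-gene median at −0.236.

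At the second step, late against intermediate, 44 nuclear members fell and 4 rose, and 5 mitochondrial members fell. Of all genes 24.9% were called, 12.9% higher and 12% lower. The nuclear median was −0.39 and the mitochondrial median −0.44, against −0.04 for all genes. Here 11 of 17 ATP synthase subunits and 19 of 36 complex I subunits fell. The largest falls were those of Ndufaf6 (−1.78), Ndufaf8 (−1.26), Sdhc (−1.10), Ndufa9 (−0.93), mt-Nd3 (−0.93) and Ndufa5 (−0.92). Of the 73 members lower in late than in immature cDC1, 18 fell in both steps, 11 in the first alone, 31 in the second alone and 13 in neither. No such split is given for all 2618 genes lower in late cDC1. The split therefore cannot be read as particular to the members. The steps share the intermediate cells.

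In late against immature cDC2, 25 nuclear members fell and 3 rose, and 1 mitochondrial member fell. Late cDC2 held 253218 and 237815 RNA UMIs, against 682761 and 894019 in late cDC1. A member not called in cDC2 may therefore still have changed. Of all genes 22.4% were called, 11.6% higher and 10.7% lower. The nuclear median was −0.37 and the mitochondrial −0.15, against −0.18 for all genes. Complex I kept 64.3% ± 3.25 with 15 of 36 subunits lower, and complex IV 87.8% ± 1.69 with 4 lower and 2 higher. Ndufs8, an iron-sulfur subunit of complex I, went from 138 and 141 to 35.5 and 46.3 CPM (−1.65, SE 0.25, adjusted p = 3.36e-06 by edgeR). Ndufa5 went from 68.3 and 65.7 to 23.7 and 21.0 CPM (−1.46, SE 0.36) and Ndufa6 from 323 and 309 to 134 and 151 (−1.02, SE 0.14). At the depth of late cDC2, the late levels of Ndufs8 and Ndufa5 stood for few UMIs. Cox5a rose from 465 and 472 to 604 and 488 CPM (0.35, SE 0.12, adjusted p = 0.0369 by edgeR), with library 2 close to the immature level. Cox7c rose from 368 and 342 to 438 and 378 CPM (0.33, SE 0.11, adjusted p = 0.03 by edgeR). Ndufa10 (−1.15, SE 0.30) and the assembly factor Ndufaf7 (−1.17, SE 0.44) also fell. Cox7a2l, counted with complex IV, fell from 721 and 818 to 489.7 and 601 CPM (−0.38, SE 0.10, adjusted p = 0.00328 by edgeR).

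Little changed at the first step of cDC2. In intermediate against immature cDC2 the nuclear calls were Sdhaf1, higher by 1.57 (SE 0.14), and Ndufa6, lower (−0.33, SE 0.09), and no mitochondrial member was called, while 9.3% of all genes were (6.3% higher, 3% lower). In late against intermediate cDC2, 14 nuclear members fell and 2 rose, and 1 mitochondrial member fell, with 13.6% of all genes called (7.27% higher, 6.36% lower). The largest falls were all of complex I: Ndufs8 (−1.48), Ndufa5 (−1.34), Ndufa10 (−1.08), Ndufs7 (−0.78), Ndufb5 (−0.72) and Ndufb10 (−0.70).

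Of the 26 members lower in late cDC2, 25 were among the 73 lower in late cDC1, which is 96.2% of the shorter list and 34.2% of the longer. Over all genes, 896 were lower in both lineages, 79.8% of the 1123 lower in cDC2 and 34.2% of the 2618 lower in cDC1. The direct test of the difference between lineages called 5 of the 101 tested members, a share near the 5.89% of all genes called (4.38% higher, 1.51% lower in the cDC1 change). Sdhd, Uqcrb, Atp5h and mt-Nd4 had the lower change in cDC1 and Cox5a the higher one. Atp5h stood at 698 and 723 CPM in immature and 671 and 652 in late cDC2, against 741 and 725 and 448 and 449 in cDC1, a difference of −0.56 (SE 0.13, adjusted p = 0.00427 by edgeR). Sdhd stood at 64.9 and 57.6 in immature and 59.2 and 92.5 in late cDC2, where its change was not called.

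Immature cDC1 exceeded immature cDC2 in 46 nuclear members and were lower in 4, and exceeded them in 6 mitochondrial members. Of all genes 50.7% were called, 26.3% higher and 24.4% lower. The nuclear median difference was 0.22 against 0.03 for all genes. With library totals alone it was 19 higher and 8 lower, with the all-gene median at −0.124. Under TMM, 14 of 17 ATP synthase and 6 of 8 complex III subunits were higher. Uqcrb stood at 408 and 375 against 279 and 257 CPM (0.70, SE 0.08), Atp5g3 at 248 and 236 against 168 and 166 (0.69, SE 0.09) and Ndufb11 at 421 and 427 against 290.4 and 295 (0.69, SE 0.08). Next were Cox7b (0.61) and Uqcr11 (0.56), and Ndufaf6 had the largest difference (1.33). Lower in cDC1 were Cox6b2 (−1.11), Sdhaf1 (−0.79) and Ndufaf7, a complex I assembly factor, at 15.6 and 16.1 against 38.3 and 41.8 CPM (−1.18, SE 0.10).

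Late cDC1 and late cDC2 differed at 5 members: Cox5a (0.55) and mt-Co1 (0.44) were higher in cDC1, and Ndufb3 (−0.98), mt-Nd2 (−0.45) and Atp5h (−0.36) lower. Of all genes 9.4% were called there, 5.28% higher and 4.12% lower. Ndufb3, a complex I subunit, stood at 70.3 and 47.0 CPM in late cDC1 against 126 and 135 in late cDC2, without overlap.

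Cycling cDC1 had a higher nuclear sum than immature cDC1. It was 23364 and 22758 CPM in S phase (112% ± 0.868) and 23608 and 22924 in G2M (113% ± 1.12), while the mitochondrial sum was 96.5% ± 1.57 and 94.1% ± 1.49 of immature. In S phase 22 nuclear members rose and 5 fell, and 6 mitochondrial members fell, beside 44% of all genes called (18.5% higher, 25.5% lower). In G2M 29 nuclear members rose and 13 fell, and 8 mitochondrial members fell, beside 55.6% of all genes (23.1% higher, 32.5% lower). With library totals alone the nuclear calls were 42 higher and 4 lower in S phase and 52 higher and 4 lower in G2M. The sums and percentages above are on library totals too. There the all-gene median was 0.024 in S phase and 0.0866 in G2M, against −0.0975 and −0.089 under TMM. G2M cells had a median of 13922 and 13021.5 RNA UMIs. Neutrophil markers (3 genes) summed to 27.2 and 344 CPM in S-phase and 316 and 188 in G2M cDC1, against 34.8 and 26.8 in immature cells. Erythroid markers (4 genes) summed to 66.5 and 111, and 610.2 and 633, against 186 and 354. Their part in these results was not tested. With at most 3 UMIs of S100a8 and S100a9 allowed per cell (chosen after seeing the data), the G2M calls were 30 nuclear members higher and 13 lower and the S-phase calls 22 nuclear members higher and 5 lower.

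Ndufaf2, an assembly factor of complex I, stood at 17.8 and 16.6 CPM in immature, 44.4 and 42.4 in S-phase and 41.8 and 42.7 in G2M cDC1, a rise of 1.12 (SE 0.09, adjusted p = 4.4e-13 by edgeR) in G2M. Ndufa5 rose to 105 and 98.2 CPM (0.65, SE 0.09), the opposite of its fall in late cells. Complex II reached 133.7% ± 2.38 of immature in G2M, with Sdhd at 114 and 99.4 CPM (0.44, SE 0.09) and Sdhb at 161 and 175 (0.36, SE 0.09). The largest S-phase fall was that of the assembly factor Ndufaf3, from 36.7 and 40.1 to 23.4 and 22.7 CPM (−0.86, SE 0.09, adjusted p = 4.53e-09 by edgeR), and other large S-phase rises were Ndufa5 (0.59), Ndufab1 (0.49), Ndufaf4 (0.45), Atp5g1 (0.42) and Ndufv1 (0.41). In G2M the stalk subunit Atp5o rose from 215 and 207 to 342 and 344 CPM (0.52, SE 0.08), and Ndufv1 rose by 0.45 (SE 0.06). Of members taken for role or level, Cox7a2 (0.37) and Ndufa4 (0.23) rose in G2M, and Cox4i1 (−0.28) and Ndufa13 (−0.33) fell. Sdha, Sdhc, Cox6b1, Cox8a, Ndufs4 and Atp5h were not called. Cox6b2, a paralogue known from testis, rose from 5.89 and 5.36 to 13.5 and 14.9 CPM (1.17, SE 0.16).

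Cox7a2l, Uqcrh and Ndufa6 fell in S-phase cDC1, G2M cDC1 and G2M cDC2 alike. Cox7a2l stood at 663 and 746 CPM in immature, 506 and 569.6 in S-phase and 405 and 471 in G2M cDC1 (−0.86, SE 0.07, adjusted p = 3.69e-12 by edgeR). In cDC2 it stood at 721 and 818 in immature and 444 and 502 in G2M cells (−0.79, SE 0.08). Uqcrh changed by −0.54 (SE 0.07) in G2M cDC1 and −0.49 (SE 0.08) in G2M cDC2, and Ndufa6 by −0.59 (SE 0.08) and −0.38 (SE 0.09).

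In G2M against immature cDC2, 37 nuclear members rose and 4 fell, and 5 mitochondrial members fell, beside 32% of all genes called (17% higher, 15% lower). The nuclear median was 0.20 against −0.03 for all genes. With library totals alone 1 mitochondrial member was higher and 2 lower. Neutrophil markers (3 genes) summed to 6118 and 4407 CPM in this class against 37.7 and 28.6 in immature cDC2. The largest rises were those of Ndufaf2 (0.98), Cox6b2 (0.71), Ndufa5 (0.61), Sdhd (0.61), Ndufab1 (0.56) and Atp5g3 (0.56). Besides Cox7a2l, Uqcrh and Ndufa6, falls were those of mt-Co2 (27 and 38 UMIs against 2 and 5), mt-Nd5 (−0.59) and Atp5md (−0.26). Limiting dendritic cells to at most 3 UMIs of S100a8 and S100a9, a gate chosen after seeing the data, gave 38 nuclear members higher and 4 lower.

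**Figure D4:**
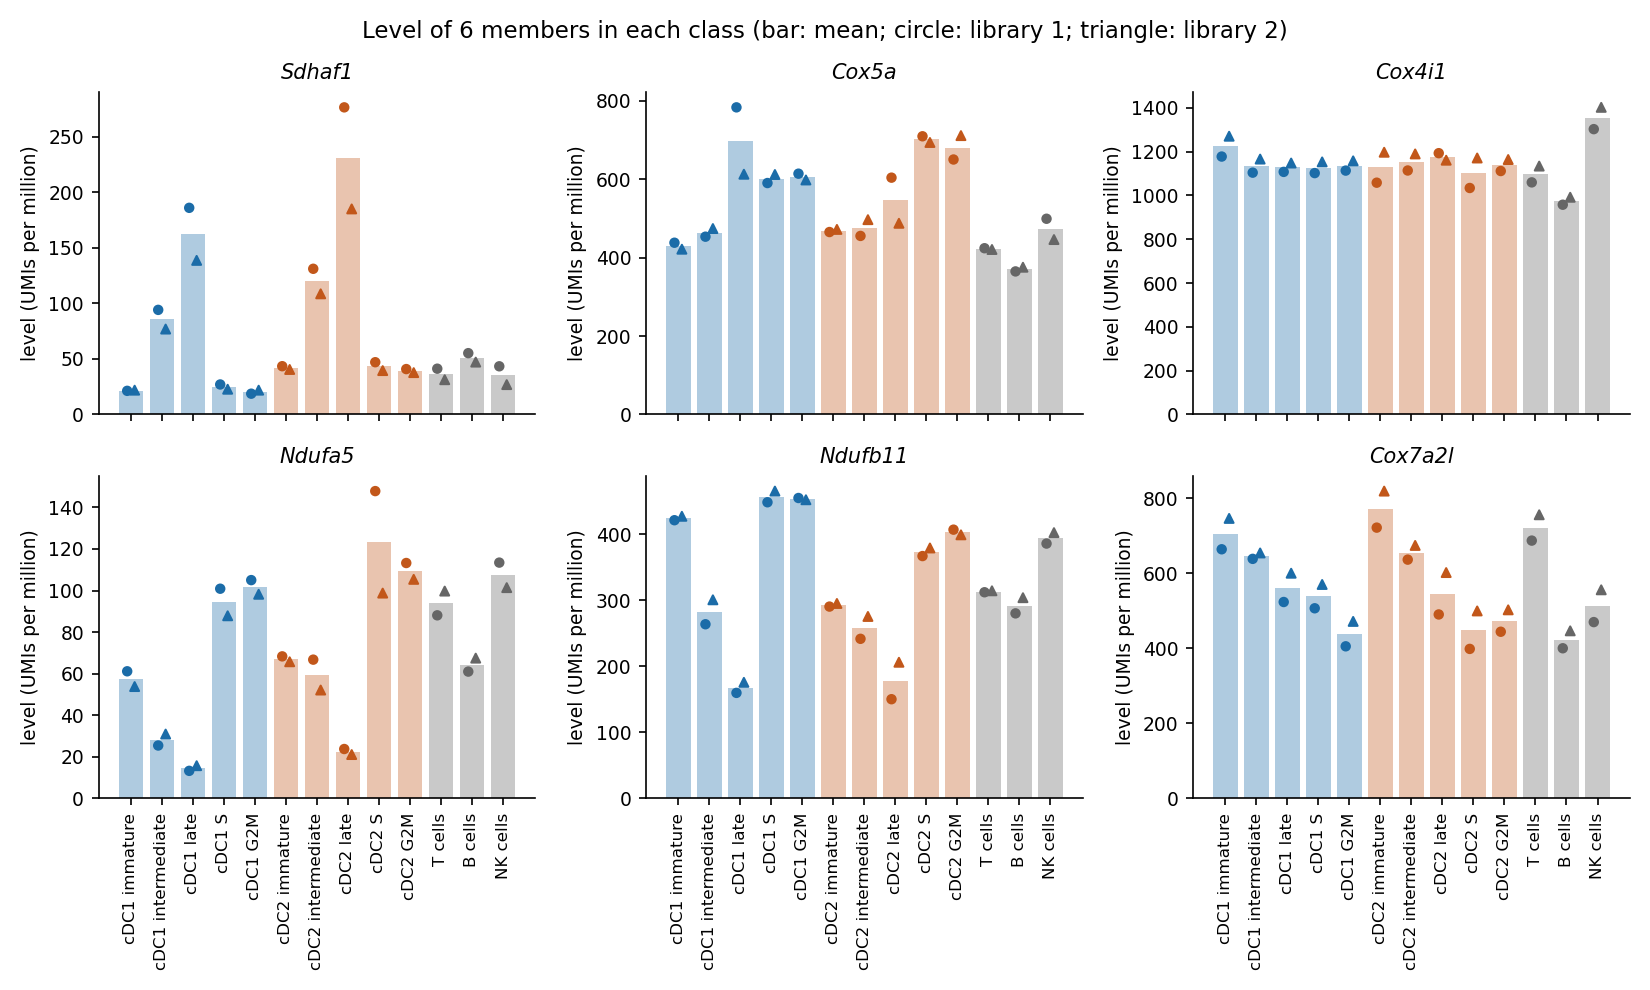
Level in CPM of Sdhaf1, Cox5a, Cox4i1, Ndufa5, Ndufb11 and Cox7a2l in 13 cell classes, by library. Sdhaf1 is highest in late cells of both lineages (186 and 139 in cDC1, 276 and 185 in cDC2), and Cox7a2l is lower in G2M than in immature cells.

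Lymphocytes differed in the balance of the genomes. The ratio of mitochondrial to nuclear member UMIs was 0.637 and 0.650 in T cells and 0.592 and 0.556 in B cells. It was 0.370 and 0.394 in immature cDC1, 0.407 and 0.375 in immature cDC2 and 0.360 and 0.358 in NK cells. T and B libraries lay above every dendritic library, and a ratio within a library does not depend on scaling. In immature cDC1 most mitochondrial UMIs of this ratio came from mt-Cytb and mt-Nd1.

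In T cells against immature cDC1, 9 of 11 mitochondrial members were higher and 0 lower, and 45 nuclear members were lower and 8 higher, beside 67.4% of all genes called (35% higher, 32.5% lower). The nuclear direction depended on scaling: RLE gave 12 higher and 34 lower, and library totals 23 higher and 22 lower, with the all-gene median moving from 0.05 to 0.31. Neutrophil markers summed to 1318 CPM in T library 1 and 17.1 in library 2, and erythroid markers to 649 and 46.4, and their part in the results was not tested. The mitochondrial sums of these libraries were 12712 and 13178 CPM. mt-Nd2 stood at 2048 and 2069 CPM against 854 and 890.0 (0.98, SE 0.08, adjusted p = 1.79e-12 by edgeR) and mt-Nd5 at 308 and 345 against 144 and 159 (0.85, SE 0.09). Ndufaf4, a complex I assembly factor, stood at 42.7 and 43.0 against 19.0 and 14.9 CPM (1.07, SE 0.13). mt-Nd6 (0.63), mt-Atp8 (0.52) and Sdhaf1 (0.49) were higher too. Uqcrb was lower at 234 and 218 against 408 and 375 CPM (−1.05, SE 0.09), followed in size by Ndufc2 (−0.81), Atp5md (−0.70), Uqcr11 (−0.70) and Ndufb11 (−0.69). Under TMM, of the members taken for role or level, Ndufs4, Cox4i1, Ndufa13, Cox6b1, Cox8a and Cox7a2 were lower (−0.60, −0.42, −0.38, −0.37, −0.29 and −0.28).

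In B-gated cells 34 nuclear members were lower and 1 higher, and 6 mitochondrial members were higher, beside 37.2% of all genes called (18.7% higher, 18.5% lower). The higher nuclear member was Sdhaf1, at 55.2 and 47.1 CPM (1.29, SE 0.17). The largest mitochondrial differences were mt-Nd6 (0.79), mt-Nd5 (0.68) and mt-Nd2 (0.55), and the largest nuclear ones downward Ndufaf6 (−1.35), Cox7a2l (−0.68), Ndufaf8 (−0.67), Uqcrb (−0.67), Ndufa6 (−0.65) and Atp5c1 (−0.63). Erythroid markers summed to 46.1 CPM in B library 1 and 1115 in library 2, and their part was not tested. Leaving out B-gated cells with 2 or more XCR1 or CD172a antibody UMIs, also chosen after seeing the data, gave 37 lower and 2 higher.

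In NK cells 43 nuclear members were lower and 4 higher, and 5 mitochondrial members lower and 1 higher, beside 58.8% of all genes called (28.7% higher, 30.1% lower). Library totals turned this to 38 nuclear members higher and 10 lower and 3 mitochondrial members higher and 1 lower, with the all-gene median moving from −0.04 to 0.35. Ndufaf6 was lower in all 3 lymphocyte classes than in immature cDC1, at 3.34 and 8.45 CPM in NK cells (−2.40, SE 0.32). Under TMM, Ndufc2 (−0.99), Ndufaf8 (−0.97), Uqcrb (−0.95), Cox7a2l (−0.85) and Ndufc1 (−0.82) were next lowest in NK cells. Higher were Ndufa5 (0.51), mt-Nd5 (0.33), Ndufv1 (0.29), Ndufa11 (0.27) and Ndufb7 (0.20).

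The mitochondrial members did not move together. In cDC1, mt-Nd1 stood at 1947 and 2081 CPM in immature, 1954 and 2038 in intermediate and 1161 and 1272 in late cells (−0.55, SE 0.07, adjusted p = 1.62e-08 by edgeR). mt-Nd2 fell from 854 and 890.0 to 420.4 and 594 CPM (−0.60, SE 0.09) and mt-Cytb from 3028 and 3055 to 2185 and 2141 (−0.31, SE 0.06). mt-Nd3 changed by −0.65 (SE 0.18) and mt-Nd4 by −0.28 (SE 0.07). Not called were mt-Nd5 (0.05), mt-Nd6 (0.39), mt-Atp6 (−0.15), mt-Atp8 (0.12) and mt-Co2 (−0.56). mt-Co1, the catalytic subunit of complex IV, stood at 427 and 457 against 428 and 501 CPM. Its call as higher (0.25, SE 0.09, adjusted p = 0.0276 by edgeR) was lost with library totals alone, where the change was 0.07 (adjusted p = 0.527 by edgeR). In late cDC2, mt-Nd1 was the mitochondrial member that fell, from 1764 and 1741 to 1228 and 1358 CPM (−0.32, SE 0.07).

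In G2M cDC1 mt-Co1 fell to 319.9 and 354 CPM (−0.57, SE 0.08), while mt-Nd1, at 2095 and 2255 CPM, was not called (−0.07, SE 0.06, adjusted p = 0.376 by edgeR). mt-Nd5 changed by −0.45 (SE 0.09) and mt-Nd3 by −0.43 (SE 0.07). Some members were scarcely counted: over all barcodes mt-Co3 had 547 UMIs, mt-Nd4l 184 and mt-Co2 1515, against 724674 for mt-Cytb. Whether reads with several places in the genome were discarded was not tested.

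**Figure D5:**
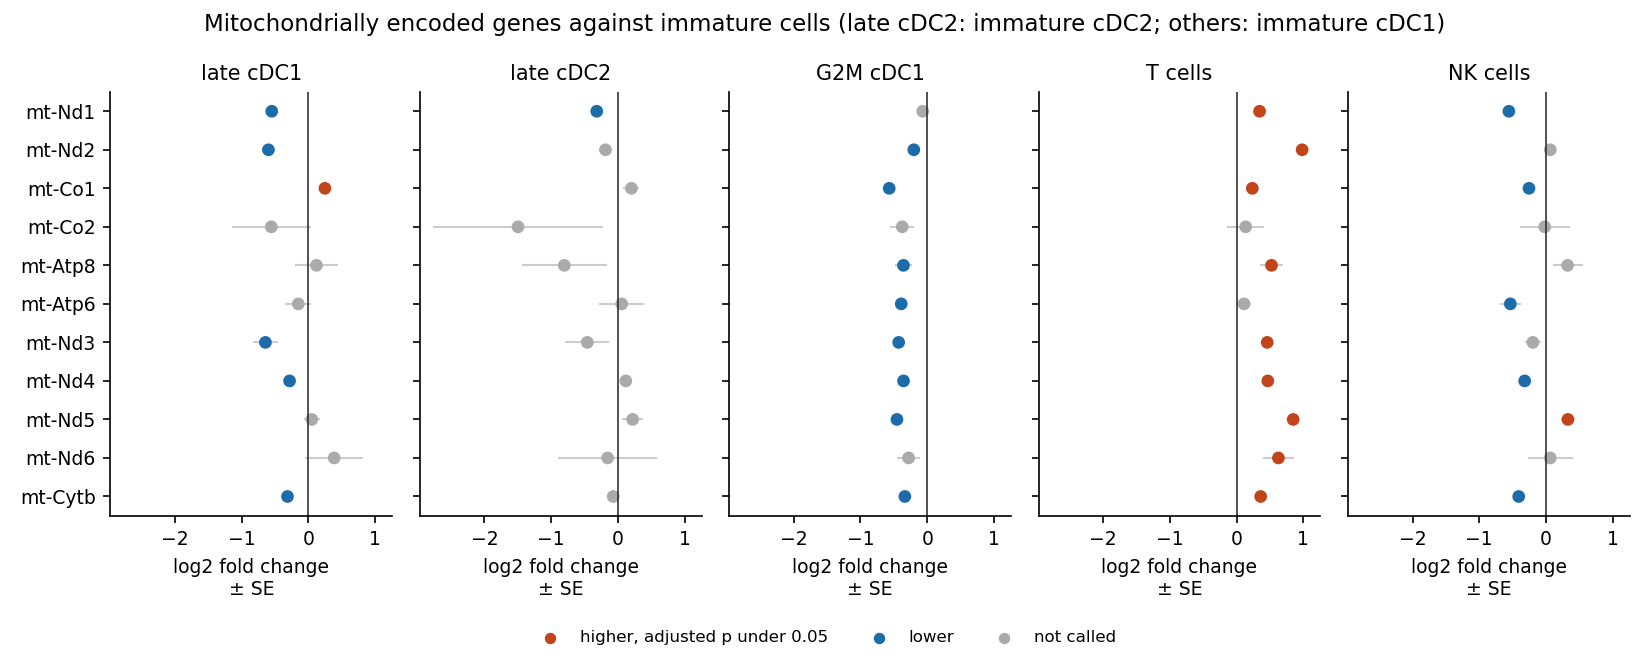
The log2 fold change with its SE of 11 mitochondrial members in late cDC1, late cDC2 (against immature cDC2), G2M cDC1, T cells and NK cells (others against immature cDC1); red is higher, blue lower and grey not called. mt-Nd1 is at −0.55 in late and −0.07 in G2M cDC1, and mt-Co1 at 0.25 and −0.57.

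The mitochondrial ribosomal RNAs, which are not members, rose in late cells. They summed to 3374 and 3222 CPM in immature and 4990 and 4366 in late cDC1, and mt-Rnr2 rose by 0.75 (SE 0.07, adjusted p = 4.95e-11) and mt-Rnr1 by 0.30 (SE 0.10, adjusted p = 0.00912). The ratio of ribosomal to protein-coding mitochondrial UMIs was 0.439 and 0.400 in immature, 0.954 and 0.766 in late and 0.293 and 0.268 in G2M cDC1.

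Other mitochondrial genes, from related lists, were measured beside the members. In late cDC1, 55 of 77 mitochondrial ribosomal protein genes fell and 5 rose, with a median of −0.86, beside 25% of all genes lower and 22.5% higher. In G2M cDC1 36 rose and 3 fell, beside 23.1% of all genes higher and 32.5% lower. Of 16 genes of the tricarboxylic acid cycle, which supplies NADH and succinate, 8 fell and 0 rose in late cDC1, beside the same 25% and 22.5%, among them Idh3a (−2.44, SE 0.39, adjusted p = 3.99e-06) and Fh1 (−1.48, SE 0.24, adjusted p = 4.54e-06). Of 19 complex IV assembly genes 10 fell and 0 rose, to be read against the same shares. Cycs, cytochrome c, changed by −1.03 (SE 0.13, adjusted p = 6.06e-08). Of the ADP/ATP carriers, Slc25a5 fell (−0.97, SE 0.10, adjusted p = 1.01e-09) and Slc25a4 rose (0.79, SE 0.09, adjusted p = 1.86e-08). Tmem70, which assembles ATP synthase, rose (1.17, SE 0.15, adjusted p = 8.21e-08).

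AA467197, also called Nmes1, is a paralogue of Ndufa4 outside the rule. It had 11 and 14 UMIs in immature, 6 and 32 in intermediate and 13 and 15 in late cDC2. Pooled, that was 2.43 CPM in immature and 57.0 in late cells (exact 95% Poisson interval 37.9 to 82.4), a change of 4.68 (SE 0.68, adjusted p = 2.48e-06). Ndufa4 meanwhile fell from 386 and 375 to 261 and 244 CPM (−0.47, SE 0.12). In late cDC1 AA467197 had 0 and 8 UMIs, so that its call there rests on library 2.

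Markers of other cells also moved with maturation. In cDC1, 5 macrophage markers summed to 11.1 and 10.5 CPM in immature and 193 and 191 in late cells. Vcam1 went from a mean of 6.05 to 139.9 CPM and Spic from 2.11 to 50.7, while C1qa went from 0.91 to 1.12, C1qb from 0.87 to 0.56 and C1qc from 0.87 to 0. In cDC2 the same sum went from 10.0 and 19.5 to 103 and 114 CPM, again in Vcam1 and Spic, with C1qa, C1qb and C1qc at 0 in late cells. C1qa and C1qb, with the monocyte marker Fcgr4, form the list held to at most 1 UMI in every dendritic class. Their low levels were thus set by the gate and do not measure macrophage content. Monocyte markers (4 genes) went from 107 and 121 to 15.8 and 12.6 CPM in cDC2 and from 13.5 and 22.1 to 4.39 and 10.1 in cDC1. In cDC1, 8 cDC2 markers summed to 27.7 and 28.9 and then 114 and 139.8 CPM, and 8 cDC1 markers went from 4398 and 4821 to 1891 and 2738. Neutrophil and erythroid sums were lower in late than in immature cDC1. The part of these markers in the results was not tested.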

How the data were processed

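RNA and antibody values are raw UMI counts as deposited by the authors in 1 matrix of both libraries, made with Cell Ranger 3.1.0 per the file headers. The submitters' processing notes name STAR, Cell Ranger, Seurat 3.1.4 and mm10. Cells with at least 500 genes, at least 1000 UMIs and under 10% mitochondrial UMIs were kept, doublets were removed with Scrublet in scanpy 1.11.5, and cells were gated as described. Cells failing every gate were left out. For each class and library the counts were added up and fitted in edgeR 4.0.16 (R 4.3.3; TMM, filterByExpr), with all 13 classes sharing the estimate of the spread. The test code was tested on simulated data. The library is a block because each class was counted in both libraries. Barcodes mark the library but not the sorted fraction of a cell, so class and sort cannot be told apart. Alternatives were other scalings, filters, gates, thinning to 3000 UMIs, no block and DESeq2 1.42.0. The members and lists were chosen with earlier results of these data known. The rule for naming took the mitochondrial members, the 6 largest called changes each way per comparison, the highest member of each complex and members with special roles. Ndufb11, Ndufv1, Ndufv2, Ndufs1, Uqcr11, Cox7b, Atp5b and other examples given within a complex were chosen after their values were seen. A member that this rule takes is not reported by name here.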

Additional observations from a re-analysis of the deposited data

Results flagged for a closer look

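For 5 members the change from immature to late cells differed between cDC1 and cDC2 by an interaction term in edgeR. That is 5 of 101 tested members, near the 5.89% of all genes called by the same test. The difference, cDC1 minus cDC2 on the log2 scale, was −1.227 for Sdhd (adjusted p = 0.0144 by edgeR), −0.7075 for Uqcrb (adjusted p = 0.00761), −0.5554 for Atp5h (adjusted p = 0.00427) and −0.4026 for mt-Nd4 (adjusted p = 0.0193). For Cox5a it was 0.5252 (adjusted p = 0.0343). Atp5h kept its call in every alternative run that gave a test, with adjusted p from 0.000406 to 0.0286. Sdhd lost it without the library block (0.0691) and with doublets kept (0.0984). Cox5a lost it with TMM without mitochondrial genes (0.0582), without the block (0.0695), with doublets kept (0.0797) and with the stricter lineage gate (0.33). Uqcrb lost it with depth-scaled gates (thresholds per cell depth; 0.123) and in thinned cells (0.278). mt-Nd4 lost it without the block (0.0543), with doublets kept (0.112), with depth-scaled gates (0.309), with the stricter lineage gate (0.138) and in thinned cells (0.222).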

How the results depend on the processing

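Members with few UMIs in the late cells, such as Ndufaf1 and mt-Co2, had wide intervals or SEs. Counts of called members stayed within 1.5 times in 351 alternatives, moved in 50 and reversed in 4, and the causes were not tested. Without the library block (no pairing), late against immature cDC1 gave 3 nuclear members higher and 67 lower.

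Nuclear calls that moved were, in intermediate against immature cDC1, 63 with library totals, 18 with depth-scaled gates, 21 with the stricter lineage gate and 16 in thinned cells. In late against intermediate cDC1 they were 28 with the stricter lineage gate and 23 thinned. In the first step of cDC2 they were 4 with library totals and 1 without the block, with doublets kept, with the stricter lineage gate and thinned. The interaction gave 10 with library totals, 7 with TMM without mitochondrial genes, 2 without the block, 9 by DESeq2 and 8 with depth-scaled gates. Immature cDC1 against cDC2 gave 27 with library totals, 32 with depth-scaled gates and 28 thinned. Late cDC1 against late cDC2 gave 6 with depth-scaled gates and, reversed, 3 with the stricter gate. S phase gave 46 with library totals, G2M cDC2 25 with the stricter gate and 15 thinned, and B cells 12 thinned. T cells gave 45 with library totals (23 higher and 22 lower, reversed) and 35 thinned, and NK cells 48 (38 and 10, reversed) and 27 thinned.

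Mitochondrial calls that moved were, in intermediate cDC1, 4 by DESeq2, 6 with depth-scaled gates and 1 thinned. In late against immature cDC2 they were 3 with library totals, 3 without a gene filter and 0 with the stricter gate, and in late against intermediate cDC2, 2 with depth-scaled gates and 0 with the stricter gate. The interaction gave 3 with library totals, 2 without a filter, 2 by DESeq2 and 0 without the block, with doublets kept, with depth-scaled gates and with the stricter gate. Late cDC1 against late cDC2 gave 1 thinned. S phase gave 1 with library totals, 3 with depth-scaled gates and 1 thinned, and G2M cDC1 5 thinned. G2M cDC2 gave 3 with library totals, without the block and with doublets kept. NK cells gave 4 with library totals (3 and 1, reversed) and 2 thinned.

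Medians reversed with library totals to −0.01017 (intermediate cDC1, mitochondrial), −0.2016 and −0.08715 (late cDC1 against late cDC2, nuclear and mitochondrial), 0.04525 (T cells, nuclear), 0.1844 and 0.1983 (NK cells, nuclear and mitochondrial). The late lineage medians also reversed with depth-scaled gates (nuclear −0.08728), with doublets kept (mitochondrial −0.009813), with the stricter gate (−0.0266), thinned (−0.0498) and, leaving out either library, ranged from −0.07378 to 0.1016. Cox7a2l in T cells reversed to 0.03847 with library totals and 0.04721 thinned.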
